A study of Mus musculus with 4 samples.

Results

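Cycling interstitial and myoid cells are the dividing stromal cells of the neonatal mouse testis, found here in 2 matrices of single-cell counts, 1 for control and 1 for Cnot3-cKO testes at postnatal day (P) 8. A barcode was a member if it held at least 8000 UMIs (unique molecular identifiers, 1 per captured transcript), at most 20% mitochondrial UMIs, and at least 0.5% of UMIs from the collagen and matrix genes Col1a1, Col1a2, Col3a1 and Dcn. It also had to hold under 0.2% of UMIs from 5 Sertoli cell genes (Cst12, Cst9, Rhox8, Amh and Aard), under 10 UMIs of the germ cell genes Ddx4 and Dazl, and at least 3 UMIs of the proliferation genes Mki67 and Top2a together. This gave 523 cells, 308 in control and 215 in Cnot3-cKO, of 7531 interstitial cells and of 17432 barcodes past the depth and mitochondrial limits. Because Mki67, Top2a and the collagen genes chose the cells, every contrast of these cells with other interstitial cells is a description and carries no test.

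The control group was labelled wild-type and, per the design text, carried Cnot3flox/flox without Cre, and the Cnot3-cKO group was labelled Cnot3 KO and carried Cnot3flox/flox with Ddx4-creER. Both groups received 4-hydroxytamoxifen from P1, which the labels end at P1 or P2 in control and at P3 or P4 in Cnot3-cKO. These last days differ in all 4 samples and go against the methods, which describe 1 schedule for both genotypes, so they may be an error of the labels. Ddx4 is a germ cell gene, so the CreER it drives was not designed to act in interstitial cells. Testis cells were sorted for CD9 and THY1 before droplet capture, a gate that can set the share of each cell class. The labels list 2 samples in each group, but each matrix merges both, so each genotype is 1 library, no difference between genotypes has a replicate check, and every interval given here covers counting error at a 95% level only.

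A dividing cell copies its DNA in S phase and separates the copies in mitosis, and cyclins bound to cyclin-dependent kinases (CDKs) drive both steps. E2F factors switch on replication genes before S phase, and the MuvB complex with B-Myb and FOXM1 switches on mitotic genes later. Around the testis cords lie contractile peritubular myoid cells, and between the cords lie fibroblasts and other stromal cells that make collagen.

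The cells carried the markers that their name implies, which the rule partly fixed. Mki67, Top2a, Col1a1, Col1a2, Col3a1 and Dcn chose the cells and are among the markers below. Levels are given as CPM, the UMIs of a gene over a class of cells per 1000000 UMIs of that class. Summed CPM of the 5 cycling markers Mki67, Top2a, Cdk1, Ccnb1 and Birc5 were 2561 in control members and 34.7 in other control interstitial cells, and 2573 and 31.7 in Cnot3-cKO. The 7 stromal markers summed to 23049 CPM in control members and 21342 CPM in Cnot3-cKO members, against 27232 and 25985 CPM in the other cells. Tcf21, a transcription factor of testis stroma, had a UMI in 99.7% of control members and 99.1% of Cnot3-cKO members. The median member held 10 Mki67 UMIs in each library, and 17 Top2a UMIs in control and 15 in Cnot3-cKO.

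Markers of other cell types were low, which for germ and Sertoli genes the limits of the rule partly fixed. The 7 germ markers summed to 32.4 and 36.6 CPM in control and Cnot3-cKO members, against 883 and 577 CPM in empty barcodes (at most 100 UMIs), and the 8 Sertoli markers to 131 and 158 CPM against 2839 and 4455 CPM. Other interstitial cells held 77.3 and 112 CPM of the Sertoli markers. By the level of Sertoli genes, RNA like that of empty barcodes made up 2.37% and 2.05% of member UMIs, and 1.89% and 1.91% in the other interstitial cells. The 7 Leydig markers summed to 44.9 and 48.1 CPM, the 7 endothelial markers to 76.7 and 70.1 CPM and the 5 T cell markers to 1.06 and 2.26 CPM. Most endothelial marker UMIs were of Cdh5, with 425 in 164 control members and 276 in 110 Cnot3-cKO members. The next, Emcn, had 23 and 15 UMIs. The 7 macrophage markers summed to 5.61 CPM in control and 52.4 CPM in Cnot3-cKO, where 1 member held all 80 C1qa UMIs. Haemoglobin genes were near 0 in members, at most 0.00852% of the UMIs of any member, while 1 other control interstitial cell held 34.1%.

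Members were deeper than the other interstitial cells. Their median was 21266 UMIs and 4971 genes in control, against 13597 UMIs and 3718 genes, and 20303 UMIs and 4810 genes in Cnot3-cKO, against 12865 and 3560. The ratio of median UMIs was 1.56 in control and 1.58 in Cnot3-cKO. Median mitochondrial shares were 4.78% and 4.95%. No barcode was a member in both libraries, although 18 barcodes were cells in both. Scrublet marked 12 control members (3.9%) and 4 Cnot3-cKO members (1.86%) as doublets, and they were kept.

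The threshold of 3 UMIs divided a continuous range. The 13 control and 9 Cnot3-cKO cells with exactly 3 UMIs of Mki67 and Top2a had median summed mitotic gene levels (the kinetochore, mitotic kinase and spindle groups below) of 620 and 699 CPM. The 34 and 35 cells with 2 UMIs, just outside, had 495 and 375 CPM, and cells with no UMI had 275 and 253 CPM. In the 181 control and 114 Cnot3-cKO members with at least 20 UMIs the median was 8581 and 9385 CPM.

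Replication and mitosis genes were higher in cycling cells of both libraries. Of 12812 genes with at least 100 UMIs over all interstitial cells, 796 (6.21%) were at least 2-fold higher in cycling than in other interstitial cells in each library, and 231 (1.8%) were at least 2-fold lower. The median log2 ratio over all genes was -0.0078 in control and -0.0045 in Cnot3-cKO. Of the 32 genes of DNA replication, all 32 were at least 2-fold higher, with a median log2 ratio of 2.23 in control and 2.60 in Cnot3-cKO. Mcm5, a subunit of the helicase that opens the DNA, was at 75.5 CPM in cycling and 16.3 CPM in other control cells, and at 78.2 and 12.3 CPM in Cnot3-cKO. Tk1, the thymidine kinase that supplies a DNA precursor, was at 173 against 4.12 CPM in control and 175 against 2.32 CPM in Cnot3-cKO. The differences between cycling and other cells ranged from 1.11 (Ung, a DNA repair glycosylase) to 5.39 (Tk1) on the log2 scale in control.

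Clustered histone genes, which make the histones that package new DNA, were also higher, 10 of 10 measured. Hist1h1b, a linker histone gene, was at 789 CPM in cycling and 8.25 CPM in other control cells, and at 831 and 9.62 CPM in Cnot3-cKO. Most transcripts of clustered histone genes lack the poly(A) tail that this assay captures, and copies of one histone type are near-identical, so their levels and their split between copies are uncertain.

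Among cyclins and CDKs, 8 of 13 genes were at least 2-fold higher and 1 was lower. Ccna2, the cyclin of S and G2 phase, was at 209 CPM in cycling and 1.75 CPM in other control cells, and at 205 and 1.75 CPM in Cnot3-cKO. Ccne2, a cyclin of S phase entry, was at 33.2 against 2.70 CPM in control and 38.0 against 1.92 CPM in Cnot3-cKO. These genes and the mitotic cyclins Ccnb1 and Ccnb2 were all far above the other cells. The exception was Ccnd2, a D-type cyclin that acts in G1, at 113 CPM in cycling and 323 CPM in other control cells, and at 105 and 306 CPM in Cnot3-cKO. Its log2 ratio was -1.51 in control (interval -1.62 to -1.41) and -1.55 in Cnot3-cKO (-1.68 to -1.41). Ccnd3, another D-type cyclin, was under 2-fold lower, at 159 against 207 CPM in control and 149 against 180 CPM in Cnot3-cKO.

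Several genes that restrain the cycle were higher as well. Of 10 CDK inhibitor and pocket protein genes, 4 were at least 2-fold higher in both libraries and none was lower. Cdkn2c, which encodes the CDK4 and CDK6 inhibitor p18, was at 217 CPM in cycling and 19.4 CPM in other control cells, and at 216 and 23.0 CPM in Cnot3-cKO. Cdkn2d, its relative p19, was at 113 against 11.4 CPM and 109 against 10.0 CPM. Cdkn2a was at 10.5 against 2.08 CPM in control and 12.7 against 1.14 CPM in Cnot3-cKO, and the pocket protein gene Rbl1 at 31.8 against 5.45 CPM and 36.6 against 4.48 CPM. Cdkn1a, a p53 target, differed in direction between libraries, with log2 ratios of 1.75 in control and -0.88 in Cnot3-cKO, and 1 control member held 69% of its 29 UMIs there.

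All 8 genes of the E2F, MuvB and FOXM1 group were higher, from the activator E2f1 at 37.9 against 13.8 CPM in control to the late repressor E2f8 at 37.3 against 0.208 CPM. Foxm1 was at 54.6 CPM in cycling and 1.33 CPM in other control cells, and at 52.4 and 1.33 CPM in Cnot3-cKO.

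Mitotic genes differed most. The median log2 ratios in control and Cnot3-cKO were 6.01 and 6.48 over 14 kinetochore and checkpoint genes, 6.14 and 6.27 over 11 genes of mitotic kinases and the APC/C (the ubiquitin ligase that ends mitosis), and 6.35 and 6.40 over 15 spindle and cytokinesis genes. At least 2-fold higher were 14 of 14, 10 of 11 and 15 of 15. Nusap1, a microtubule-binding spindle protein gene, was at 272 CPM in cycling and 0.956 CPM in other control cells, and at 258 and 1.18 CPM in Cnot3-cKO. Knl1, a kinetochore scaffold gene, was at 198 against 1.06 CPM and 211 against 0.917 CPM. The gene under 2-fold was Pttg1, the securin that holds separase in check, at 58.7 against 61.7 CPM in control and 49.7 against 56.2 CPM in Cnot3-cKO. Of 9 condensation and cohesion genes 8 were higher, and Smc3, a cohesin subunit of all cells, was at 249 against 152 CPM in control. The 14 chromatin and tubulin genes were all higher, led in level by the histone variant gene H2afz at 3230 CPM in control members and the DNA-bending protein gene Hmgb2 at 2347 CPM.

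**Figure D1:**
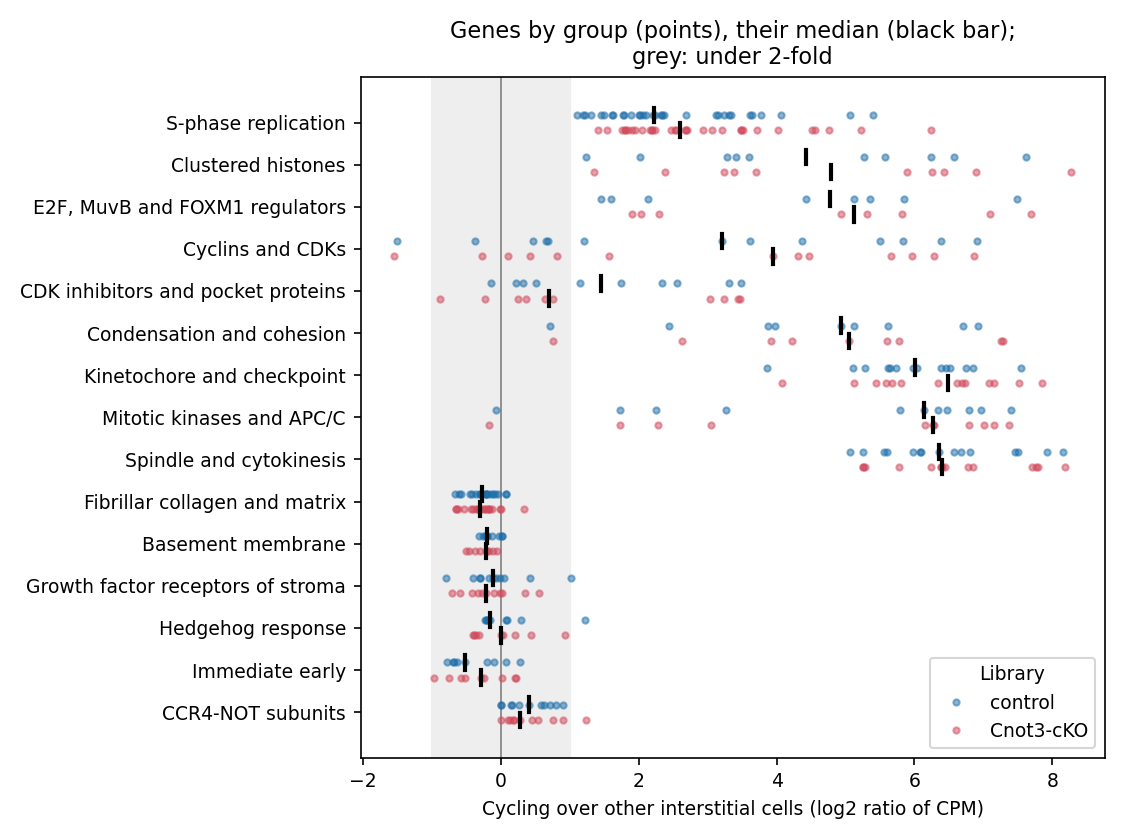
Log2 ratio of cycling over other interstitial cells for each gene (points) of 15 gene groups, in the control and Cnot3-cKO libraries; black bars mark the median of a group and the grey band differences under 2-fold. The replication, histone and mitotic groups lie to the right of the band in both libraries, while the collagen, basement membrane, receptor, Hedgehog, immediate early and CCR4-NOT groups lie mostly within it.

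Outside these groups, the 15 genes with the highest ratios were Depdc1a, Kif14, Kif18b, Mxd3, Fam64a, Neil3, Spag5, Ska1, Hist1h3c, Iqgap3, Ankle1, Melk, Dlgap5, Ckap2l and 1 gene known only by a clone name. Depdc1a was at 99.1 CPM in cycling and 0.146 CPM in other control cells, and at 102 and 0.306 CPM in Cnot3-cKO. Mxd3, an E-box factor of the MYC network, was at 181 against 0.624 CPM and 172 against 0.408 CPM.

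Promoters of the mitotic genes often held 2 short motifs. The cell cycle homology region (CHR, TTTGAA) is known as a landing site of MuvB complexes, and the CCAAT box binds NF-Y. Both strands were searched from 250 bases before to 50 after each RefSeq start site (GRCm38.p6). Of the 40 kinetochore, mitotic kinase and spindle genes 34 had a promoter sequence, and 22 (64.7%) held a CHR, 22 (64.7%) a CCAAT and 17 (50%) both, against 20.2%, 41.1% and 7.97% of all 27025 promoters. The E2F motif (TTTCGCGC or TTTGGCGC) was held by 0.929% of all promoters. Promoter sequences were matched for 25 of the 32 replication genes and 584 of the 796 higher genes, too few for a share. A match describes the letters and is not evidence of binding.

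The following stretches show both proliferation genes of the rule and Cdc20, Ube2c and Cdk1, in which CHR and CCAAT lie close together, and Mcm6 and Pola1, replication genes with E2F motifs. Cdk1 holds an E2F motif as well. Each is written 5′ to 3′ on the strand of its gene, and capitals mark CHR, CCAAT and E2F motifs or their reverse complements. In Mcm6 the letters of 2 E2F motifs on opposite strands overlap. Not every promoter held such motifs. Mcm3 and Mcm5 also held an E2F motif, while Pcna, Rrm1, Rrm2 and Cdc45 held none. Ccnb1 held no CHR, and Ccne1 and E2f1 held no CHR, CCAAT or E2F motif.
Mki67 (chr7:135716462-135716577, minus strand): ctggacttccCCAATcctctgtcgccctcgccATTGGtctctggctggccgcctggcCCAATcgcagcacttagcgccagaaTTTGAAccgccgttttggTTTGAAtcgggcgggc
Top2a (chr11:99024197-99024426, minus strand): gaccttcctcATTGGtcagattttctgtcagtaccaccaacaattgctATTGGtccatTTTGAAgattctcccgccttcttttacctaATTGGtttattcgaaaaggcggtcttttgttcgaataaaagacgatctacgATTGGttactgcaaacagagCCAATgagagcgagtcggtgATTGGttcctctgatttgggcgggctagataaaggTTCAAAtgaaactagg
Cdc20 (chr4:118437337-118437406, minus strand): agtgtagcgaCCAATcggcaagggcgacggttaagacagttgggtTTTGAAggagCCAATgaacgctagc
Ube2c (chr2:164769691-164769915, plus strand): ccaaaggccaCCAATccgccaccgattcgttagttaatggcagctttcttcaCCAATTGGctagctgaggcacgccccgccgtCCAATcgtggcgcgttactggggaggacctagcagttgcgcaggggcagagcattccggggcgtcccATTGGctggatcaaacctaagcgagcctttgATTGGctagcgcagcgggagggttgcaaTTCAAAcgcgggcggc
Cdk1 (chr10:69352912-69353130, minus strand): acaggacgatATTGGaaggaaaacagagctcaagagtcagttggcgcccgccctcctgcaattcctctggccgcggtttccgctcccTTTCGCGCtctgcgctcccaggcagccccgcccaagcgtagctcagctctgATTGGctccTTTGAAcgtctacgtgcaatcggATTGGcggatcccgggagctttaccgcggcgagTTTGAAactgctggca
Mcm6 (chr1:128359705-128359825, minus strand): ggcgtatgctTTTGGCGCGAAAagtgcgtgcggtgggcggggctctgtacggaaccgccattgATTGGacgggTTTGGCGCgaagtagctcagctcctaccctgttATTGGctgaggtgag
Pola1 (chrX:93632178-93632303, minus strand): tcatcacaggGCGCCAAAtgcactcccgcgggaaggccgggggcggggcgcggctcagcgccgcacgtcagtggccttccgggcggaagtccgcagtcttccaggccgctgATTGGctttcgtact

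Genes that were not used to order the members along the cycle also varied along that order. They can vary together with the groups that set it, so their sequence is a description and does not test the order. Members of each library were ranked by the log2 ratio of the summed mitotic groups to the summed replication group and divided into 4 bins of 77 control cells, and of 54, 54, 54 and 53 Cnot3-cKO cells. From bin 1 to bin 4, Ccne2 was at 80.9, 44.5, 2.40 and 1.31 CPM in control and at 101, 42.2, 1.78 and 2.0 CPM in Cnot3-cKO. E2f1 went from 92.1 to 3.92 CPM in control and from 98.8 to 4.01 CPM in Cnot3-cKO. The 10 clustered histone genes together peaked in bin 2, at 3766 CPM in control and 4346 CPM in Cnot3-cKO, and ended at 520 and 1059 CPM.

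Esco2, which acetylates cohesin in S phase, and E2f8 also peaked in bin 2 of both libraries. Ccna2 was highest in bin 4, at 374 and 347 CPM, as was Ccnb1, at 569 CPM in control and 428 CPM in Cnot3-cKO after 13.0 and 13.1 CPM in bin 1. The tubulin gene Tubb4b went from 168 to 1981 CPM in control and from 133 to 1690 CPM in Cnot3-cKO. The CDK inhibitor gene Cdkn1b went from 32.5 to 88.3 CPM and from 31.5 to 85.2 CPM. Ccnd2 went the other way, at 197, 104, 92.0 and 54.9 CPM in control and 175, 92.9, 84.7 and 60.1 CPM in Cnot3-cKO. Ogn, which encodes the matrix protein osteoglycin, was at 150, 77.2, 43.9 and 28.1 CPM in control and 129, 96.4, 58.8 and 23.1 CPM in Cnot3-cKO. Median depth was lowest in bin 4, at 17693 UMIs in control and 15452 in Cnot3-cKO, against 20337 to 22404 in the other bins.

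**Figure D2:**
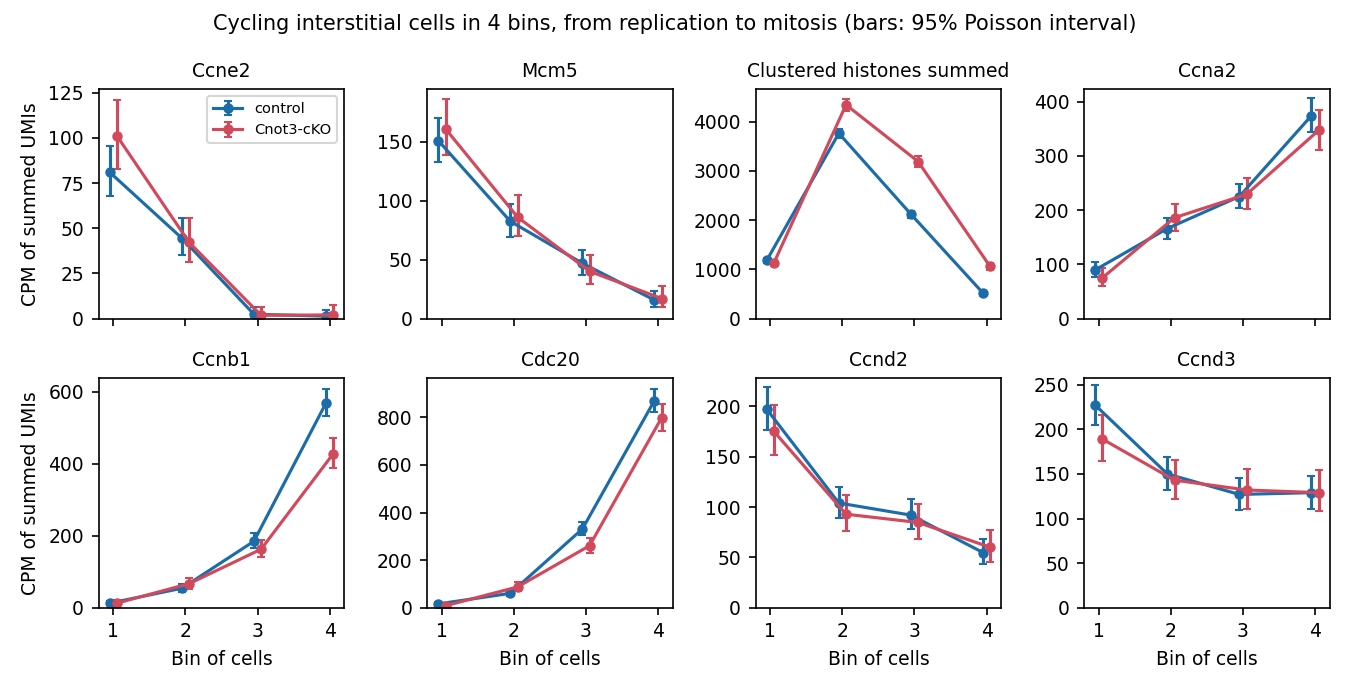
Level (CPM of summed UMIs) of 8 genes or gene sums in the 4 bins of cycling interstitial cells ordered from replication to mitosis, for the control and Cnot3-cKO libraries, with 95% Poisson intervals. Ccne2 is highest in bin 1, the histone sum in bin 2 and Ccna2 and Ccnb1 in bin 4, and Ccnd2 is highest in bin 1; Mcm5 and Cdc20 belong to the groups that set the order.

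Matrix genes made up a slightly lower share of UMIs in cycling cells. These levels are shares, and cycling cells held more UMIs, 1.56 and 1.58 times the median of other cells in control and Cnot3-cKO. None of 21 fibrillar collagen and matrix genes with enough UMIs differed by 2-fold, and their median log2 ratio of cycling over other cells was -0.27 in control and -0.31 in Cnot3-cKO. Col1a1, the main collagen of the interstitium, was at 5556 against 6492 CPM in control and 4831 against 5848 CPM in Cnot3-cKO. Dcn, a collagen-binding proteoglycan gene, was at 2343 against 3487 CPM and 2185 against 3452 CPM. Both genes were in the rule, as were Col1a2 and Col3a1. Postn and Lum, not in the rule, had log2 ratios of -0.61 and -0.67 in control and -0.65 and -0.54 in Cnot3-cKO. None of 9 basement membrane genes and none of 11 growth factor receptor genes reached 2-fold in both libraries. Of all genes tested, 6.21% were higher and 1.8% lower in both.

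Among the lower genes was Ogn, at 76.1 CPM in cycling and 380.5 CPM in other control cells, and at 78.6 and 396.7 CPM in Cnot3-cKO. On the log2 scale the ratios were -2.32 (-2.45 to -2.19) and -2.34 (-2.49 to -2.18). Pygm, the muscle glycogen phosphorylase gene, was at 6.37 against 26.3 CPM in control and 6.33 against 30.3 CPM in Cnot3-cKO. The lysosomal sialidase gene Neu1 was at 1.52 against 10.1 CPM and 1.58 against 11.0 CPM. Gsta4, a glutathione transferase gene, was at 22.4 against 58.5 CPM and 28.9 against 66.1 CPM, the only 1 of 9 glutathione genes past 2-fold in both libraries. Ptges, a prostaglandin E synthase gene, had log2 ratios of -1.58 in control and -0.82 in Cnot3-cKO. Hbb-bt had no UMI in members, and the haemoglobin-rich control cell described above was among the other cells.

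Signalling genes stayed under 2-fold in at least 1 library, as did most genes. Of all 12812 genes 6.21% were higher and 1.8% lower in both, so lists this short can hold none without standing apart. Of 9 Hedgehog response genes none reached 2-fold in both libraries, and the largest ratio was that of the transcription factor gene Gli3, at 30.01 against 12.8 CPM in control and 26.9 against 14.1 CPM in Cnot3-cKO (log2 1.22 and 0.93). None of 7 Notch genes, 9 immediate early genes, 11 p53 target genes or 7 nuclear receptor genes reached 2-fold in both. Pdgfrb, the receptor of PDGF-B, was at 23.8 against 41.4 CPM in control and 27.3 against 44.8 CPM in Cnot3-cKO. Igf1, a growth factor gene, was at 412 against 649 CPM and 426 against 740 CPM. Of 12 ribosome biogenesis and growth genes only Ran, the nuclear transport GTPase gene, was past 2-fold, at 811 against 254 CPM in control and 743 against 230 CPM in Cnot3-cKO. The growth regulator gene Myc was slightly lower, at 20.6 against 24.7 CPM in control and 20.3 against 26.3 CPM in Cnot3-cKO.

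The 11 CCR4-NOT genes encode the deadenylase complex that shortens poly(A) tails and to which CNOT3 belongs. Their median log2 ratio was 0.40 in control and 0.28 in Cnot3-cKO. None was past 2-fold in both, where 6.21% of all genes tested were higher and 1.8% lower. Cnot9 was at 22.9 against 12.3 CPM in control and 25.8 against 10.9 CPM in Cnot3-cKO, and Cnot6, a deadenylase gene, at 107 against 65.4 CPM and 115 against 61.5 CPM.

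Cycling cells came from each of the main stromal clusters. All interstitial cells were clustered without cell cycle genes, without the genes of the rule and without 2254 genes in total that differed by at least 1.5-fold between cycling and other cells, so that the cycle would not define a cluster. Clusters were named from their markers as peritubular myoid-like (Acta2 at 2369 CPM, against 164 and 320 CPM in the other large clusters) and Smoc2 interstitial-like (Smoc2 at 1331 CPM, against 760 and 909 CPM). The third large cluster, of 2060 cells, got no cell type name and is called Cd34-high (Cd34 at 777 CPM, against 108 and 409 CPM). Of its 10 leading genes 4 were haemoglobin genes and 1 (Mfap5) was of the Cd34 fibroblast markers. 1 cell held 99.7% of its haemoglobin UMIs, and without that cell, a choice made after seeing the data, its leading genes were Clec3b, Mfap5, Agtr2, Tppp3 and Sostdc1. The peritubular myoid-like cluster held 136 of 308 control members (44.2%) and 107 of 215 Cnot3-cKO members (49.8%). The Cd34-high cluster held 65 and 38, and the Smoc2 interstitial-like cluster 100 and 55. Of 4 small clusters, 1 led by endothelial and Sertoli genes held 3 members in each library and 1 led by macrophage genes held 1 in each. Another, left unnamed, had 1 member among 20 control cells and 5 among 98 Cnot3-cKO cells. Its Acta2 (2686.5 CPM), Tagln (3016 against 430 CPM), Cnn1, Actg2 and Tpm2 were above those of the peritubular myoid-like cluster. Its Myh11 (280 against 357 CPM), Des and Myl9 were below. The last, with Hsd3b1 at 219.5 CPM, held 2 control and 6 Cnot3-cKO members.

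Among the 3 large clusters the cycling share was lowest in the Cd34-high cluster. In control it was 5.8% (4.5 to 7.33%) there, 9.78% (8.27 to 11.5%) in peritubular myoid-like cells and 9.23% (7.57 to 11.1%) in Smoc2 interstitial-like cells. In Cnot3-cKO the 3 shares were 4.05% (2.88 to 5.51%), 6.69% (5.52 to 8.03%) and 4.87% (3.69 to 6.29%). The interval of the cells of the Cd34-high cluster lay apart from those of the other large clusters in control, and in Cnot3-cKO it overlapped that of Smoc2 interstitial-like cells. The cells of the Cd34-high cluster were also the shallowest of the 3, with medians of 12535 and 11398 UMIs over the cluster, and after thinning each cell to 8000 UMIs the control shares were 5.26%, 8.55% and 8.21%. Within the order along the cycle, each cluster had members in all 4 bins, between 14.5% and 34.5% of the cluster's members in a bin.

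**Figure D3:**
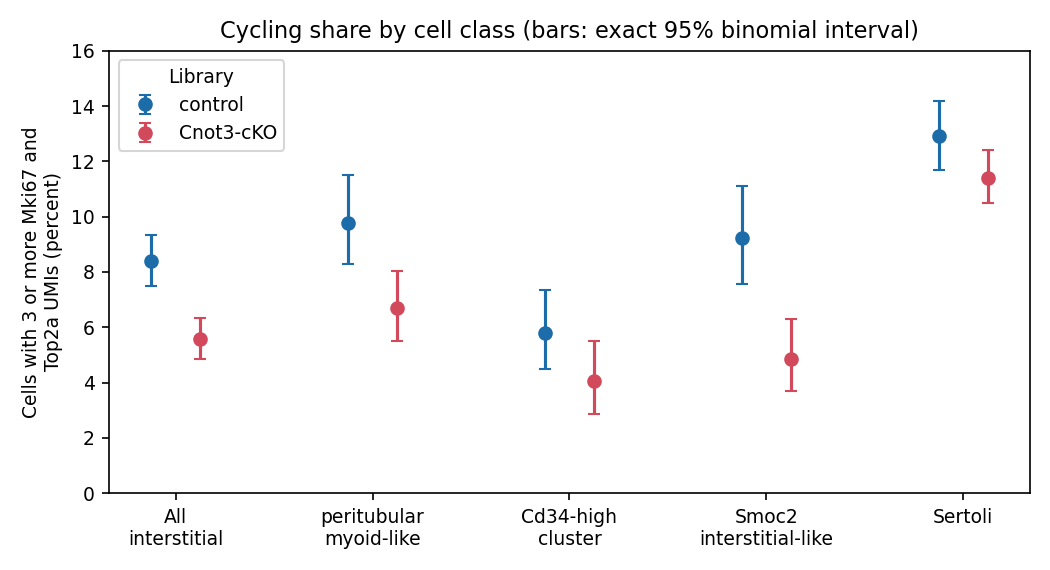
Share of cells with at least 3 Mki67 and Top2a UMIs among all interstitial cells, the 3 large stromal clusters and Sertoli cells, in the control and Cnot3-cKO libraries (points), with exact 95% binomial intervals (bars). The control point lies above the Cnot3-cKO point in every class, and the intervals are apart for all interstitial cells, peritubular myoid-like cells and Smoc2 interstitial-like cells.

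Within clusters the contractile genes did not move together. In peritubular myoid-like cells Tagln, the gene of the actin-binding protein transgelin, was at 220 CPM in cycling and 564 CPM in other control cells, and at 137 and 370 CPM in Cnot3-cKO, log2 ratios of -1.36 (-1.47 to -1.24) and -1.43 (-1.61 to -1.26). Tpm2, a tropomyosin gene, was at 813 against 639 CPM and 830 against 593 CPM, and Cnn1, the calponin gene, at 12.7 against 7.25 CPM and 26.7 against 8.75 CPM. Acta2, smooth muscle actin, was at 2514 against 2715 CPM in control and 2326 against 2041 CPM in Cnot3-cKO, with opposite signs. Tagln was thus lower, and Tpm2 and Cnn1 higher, in cycling cells of both libraries.

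In the other large clusters cycling cells held more Acta2 and Tpm2 than their neighbours. In cells of the Cd34-high cluster Acta2 was at 356 against 172 CPM in control and 188 against 129 CPM in Cnot3-cKO, and in Smoc2 interstitial-like cells at 548 against 332 CPM and 523 against 259 CPM. Tpm2 had log2 ratios of 0.91 and 0.89 in cells of the Cd34-high cluster and of 0.93 and 0.86 in Smoc2 interstitial-like cells. Smoc2 interstitial-like cycling cells also held more S100a6, a marker of the Cd34 cluster, at 564 against 309 CPM and 401 against 197 CPM. Collagen was lower mainly in cells of the Cd34-high cluster, where Col3a1 was at 8386 against 10699 CPM in control and 7389 against 11330 CPM in Cnot3-cKO. In Smoc2 interstitial-like cells it was at 4372 against 4410 CPM and 4916 against 4642 CPM. The median log2 ratio of the matrix genes was -0.284 in control and -0.474 in Cnot3-cKO in the Cd34-high cluster. It was -0.116 and -0.222 in peritubular myoid-like cells and -0.059 and -0.055 in Smoc2 interstitial-like cells. Doublet calls were more frequent in members than in other interstitial cells (1.34% and 1.32%), and their part in these differences was not tested.

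**Figure D4:**
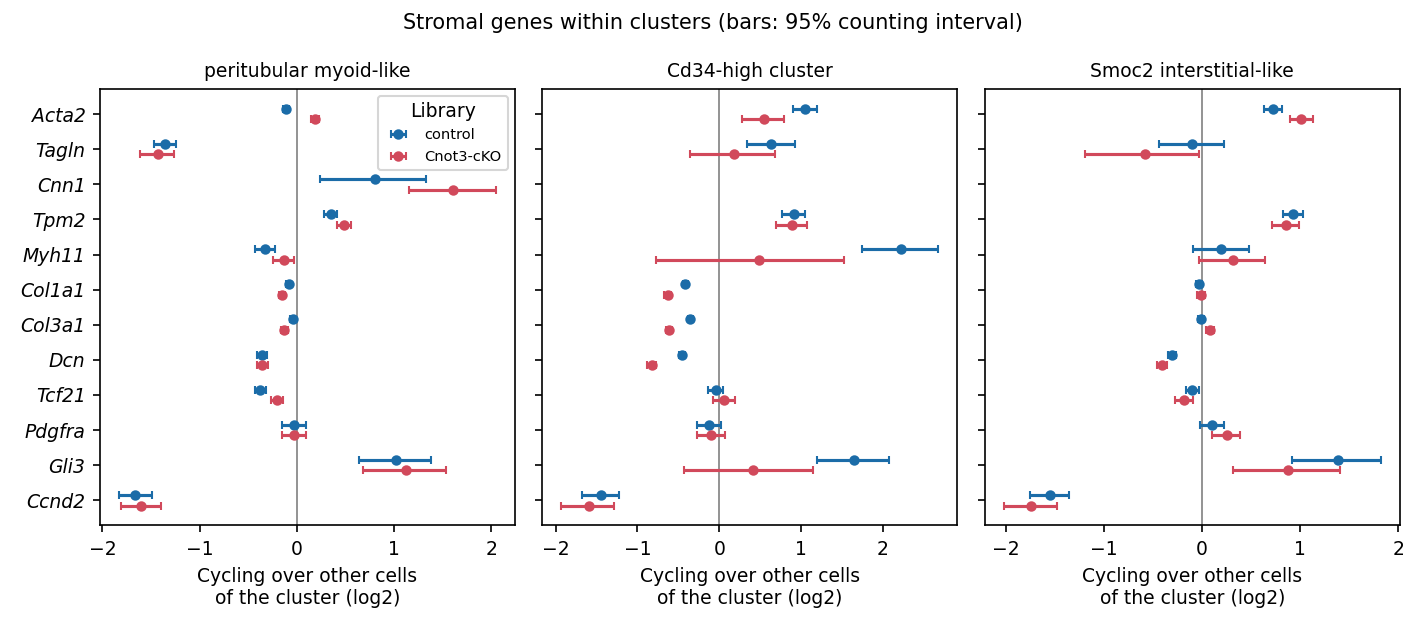
Log2 ratio of cycling over other cells of the same cluster for 12 stromal genes in the peritubular myoid-like, Cd34-high and Smoc2 interstitial-like clusters, by library, with 95% counting intervals. Tagln lies near -1.4 only in the peritubular myoid-like panel, Acta2 and Tpm2 lie to the right of 0 in the other panels, and Ccnd2 lies to the left in all 3; Cnn1 is drawn only where it had enough UMIs.

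Differences that all 3 clusters shared were those of Ccnd2, with log2 ratios between -1.74 and -1.45, and of Ogn, between -2.97 and -2.07. Gsta4 was lower in all 3 as well, with ratios from -1.71 to -0.659. Aard, a Sertoli gene that the rule limits, was higher in cycling cells of all 3, at 73.9 against 37.3 CPM in control peritubular myoid-like cells, while over all members the Sertoli gene Cst12 had ratios of 0.37 in control and 0.255 in Cnot3-cKO and Amh of 0.54 and -0.16. The median over 6 measured Sertoli markers was 0.425 in control and 0.107 in Cnot3-cKO. Rgs5, a pericyte marker, passed 2-fold over all members, but 2 members of each library held all of its UMIs.

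Cycling interstitial cells and cycling Sertoli cells, chosen by the same 3 UMIs of Mki67 and Top2a, had like median levels of most cycle groups, while single genes differed. There were 363 control and 485 Cnot3-cKO cycling Sertoli cells, with median depths of 18864 and 17892 UMIs. Median log2 ratios of interstitial over Sertoli were 0.15 and 0.10 for replication, 0.05 and 0.20 for kinetochore and -0.07 and -0.02 for spindle genes. Cdkn1c, the gene of the CDK inhibitor p57, was at 144 CPM in cycling interstitial and 1.93 CPM in cycling Sertoli cells of control, and at 113 and 1.53 CPM in Cnot3-cKO, which gave 6.22 (5.47 to 7.10) and 6.20 (5.44 to 7.08) on the log2 scale. Ccnd3 was at 159 against 27.1 CPM and 149 against 26.3 CPM. Ccnd2 was the D-type cyclin of the Sertoli cells, at 360 CPM in control and 314 CPM in Cnot3-cKO against 113 and 105 CPM. Cdk6, a partner of the D-type cyclins, was at 10.3 CPM in interstitial and 44.7 CPM in Sertoli cells of control, and at 8.36 and 50.4 CPM in Cnot3-cKO. Each of these differences lay past 2-fold in both libraries. So did those of Tk1, at 173 against 85.7 CPM in control, and, with the lower level in interstitial cells, of Dut, a nucleotide hydrolase gene, at 187 against 430.5 CPM, and the tubulin gene Tuba1c, at 81.9 against 256 CPM. Cdkn1c and Ccnd3 were not particular to cycling cells: other interstitial cells held 159 and 207 CPM in control. Cdkn1c also varied among cycling cells, from 39.3 CPM in peritubular myoid-like to 401 CPM in the Cd34-high cluster of control.

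Between genotypes, the first check was Cnot3 itself. It was at 50.3 CPM (332 UMIs) in control members and 50.4 CPM (223 UMIs) in Cnot3-cKO members, and the log2 ratio was 0.0019 (-0.249 to 0.251). In barcodes with at least 10 Ddx4 and Dazl UMIs, the class the Cre line targets, it was at 71.2 and 39.5 CPM, a log2 ratio of -0.851. Counted 3′ ends can lie outside the deleted exons, which no source used here gives.

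The cycling share was lower in the Cnot3-cKO library. It was 8.38% of 3677 interstitial cells in control (7.5 to 9.32%) and 5.58% of 3854 in Cnot3-cKO (4.87 to 6.35%), which is a log2 ratio of -0.586 (-0.845 to -0.33). After thinning to 8000 UMIs per cell the shares were 7.51% and 4.98%. The log2 ratio was -0.547 (-0.926 to -0.171) in peritubular myoid-like, -0.519 (-1.14 to 0.0803) in the Cd34-high cluster and -0.922 (-1.42 to -0.434) in Smoc2 interstitial-like cells, so the interval reached 0 only in cells of the Cd34-high cluster. For Sertoli cells the shares were 12.9% and 11.4%, a log2 ratio of -0.177 (-0.377 to 0.0229). Without replicates, a difference between the 2 libraries cannot be told apart from one between animals, sorts or captures.

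Few genes differed between genotypes within the cycling cells. Of 8735 genes with at least 100 UMIs in members, 12 (0.137%) were at least 2-fold higher in Cnot3-cKO and 13 (0.149%) at least 2-fold lower. None of the 10 cycle groups had a gene past 2-fold, and their medians lay between -0.122 (mitotic kinases and APC/C) and 0.299 (clustered histones), against -0.0089 over all genes tested. Mki67 was at 611 CPM in control and 658 CPM in Cnot3-cKO, and Top2a at 777 and 818 CPM.

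Of the 12 higher genes 6 were immediate early genes of the list, which cells switch on within minutes of a stimulus or of dissociation. Among the 8 measured the median log2 ratio was 1.13, against 1.06 in other interstitial cells. Fos, an AP-1 subunit gene, was at 68.1 CPM in control members and 455 CPM in Cnot3-cKO members, or on the log2 scale a ratio of 2.74 (2.59 to 2.89). Its UMIs came from 128 of the control members and 159 of the Cnot3-cKO members. Fosb was at 53.7 and 309 CPM, Junb at 69.6 and 257 CPM and Egr1 at 284 and 670 CPM. Jun was at 404 and 813 CPM and Ier2 at 169 and 344 CPM. Jun and Ier2 lay just past 2-fold (1.01 and 1.02) and fell to 0.98 with cycling cells from 2 UMIs and to 0.99 with cycling cells from 5 UMIs.

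Genes outside the immediate early list were higher too. Zfp36, which encodes a protein that binds AU-rich elements, was at 12.6 and 66.4 CPM, and Btg2, an antiproliferative gene whose protein binds the CCR4-NOT deadenylases, at 142 and 404 CPM. Socs3, a feedback inhibitor of cytokine signalling, was at 17.6 and 52.2 CPM. Nr4a1 was at 17.9 and 45.7 CPM and the amino acid transporter gene Slc38a9 at 19.3 and 53.1 CPM. Of the 12 higher genes 11 (91.7%) were also at least 2-fold higher in other interstitial cells, and Jun was at 0.88 there. In cycling Sertoli cells Fos had a log2 ratio of 0.615, Btg2 of -0.026 and Jun of -0.207, while Socs3 was at 1.29 and Slc38a9 at 1.14. In barcodes with at least 10 Ddx4 and Dazl UMIs Fos was at 1.66, Fosb at 1.64 and Junb at 1.74. The 10 immediate early genes summed to 1844 CPM in empty barcodes of control and 3302 CPM in those of Cnot3-cKO. The immediate early difference was thus also present in non-cycling interstitial cells, and whether handling of the 2 libraries took part in it was not tested.

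Of the lower genes, 4 came from 1 cell. Cd74, H2-Aa, H2-Eb1 and H2-Ab1 encode MHC class II proteins and their chaperone, known from antigen-presenting cells, and 1 control member held 99.2%, 100%, 92.3% and 96.5% of their control UMIs. H2-Aa, with 114 UMIs in control and none in Cnot3-cKO, was at least 25.5-fold lower against a floor of 3 UMIs over the library. Without the cells of the macrophage-gene and endothelial-gene clusters, a choice made after seeing the data, 5 genes were lower in place of 13.

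Fgfr1 and Clasrp were lower across cells. Fgfr1, a receptor of fibroblast growth factors, was at 104 CPM in control and 44.1 CPM in Cnot3-cKO members, or on the log2 scale a ratio of -1.24 (-1.48 to -1.01), with UMIs in 264 and 124 members. It was the only growth factor receptor past 2-fold, and in other interstitial cells its ratio was -1.04. Clasrp, a gene of a splicing regulator, was at 40.3 and 19.2 CPM, a ratio of -1.07 (-1.44 to -0.71), and at -1.01 in other interstitial cells. Anxa4 had a ratio of -1.23 (-1.81 to -0.69) in members and -0.34 in other interstitial cells, on 126 and 36 UMIs. S100a6, at 674 and 405 CPM, and Crip1, at 156 and 90.2 CPM, were under 2-fold lower.

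**Figure D5:**
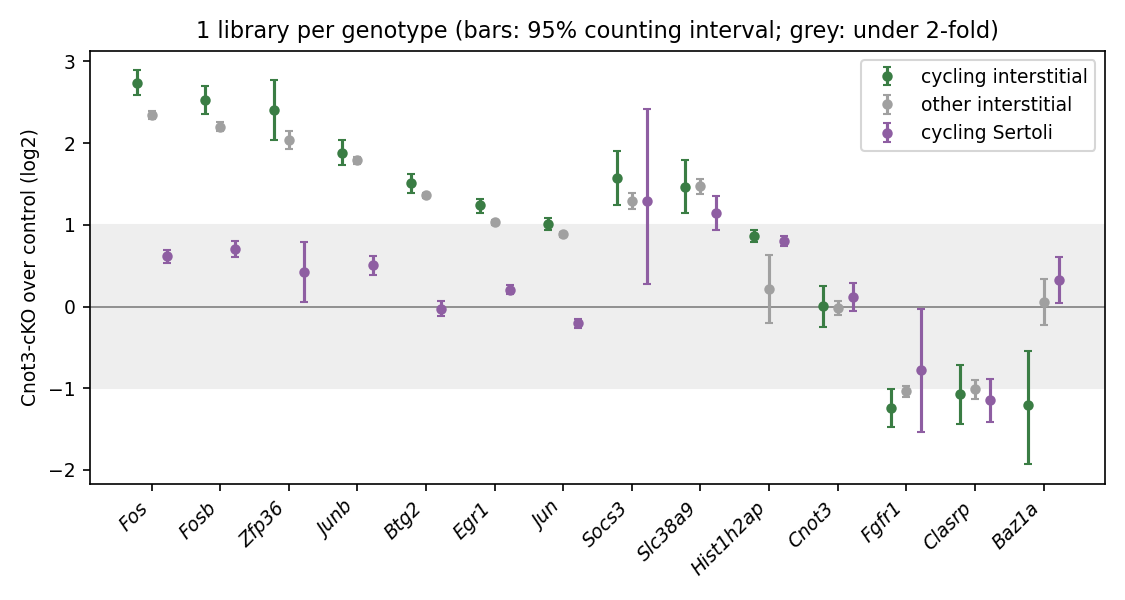
Log2 ratio of Cnot3-cKO over control for 14 genes in cycling interstitial, other interstitial and cycling Sertoli cells, with 95% counting intervals; each genotype is 1 library. Fos, Fosb, Zfp36 and Junb lie above 1 in both interstitial classes and below 1 in cycling Sertoli cells, Cnot3 lies at 0, and Clasrp lies near -1 in all 3.

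Clustered histones were the cycle group that leaned most between genotypes. Of the 10 genes, 8 had an interval above 0 and none below, where 5.99% of all genes tested had an interval above 0. That share was not matched for level, and genes with more UMIs have narrower intervals. Hist1h2ap was at 377 CPM in control and 686 CPM in Cnot3-cKO members, a log2 ratio of 0.86 (0.79 to 0.94), and was higher in Cnot3-cKO in each of the 4 bins of the cycle. The same gene had a ratio of 0.80 in cycling Sertoli cells. The linker histone genes Hist1h1d (0.53) and Hist1h1e (0.34), by contrast, had ratios of -0.72 and -0.015 in cycling Sertoli cells. None of the 10 reached 2-fold.

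Apart from Fgfr1, no gene of the stromal groups reached 2-fold between genotypes within cycling cells. The 21 matrix genes had a median log2 ratio of -0.099, and of -0.059 in other interstitial cells. In cycling cells 13 intervals lay below 0 and 1 above, where 7.21% of all genes tested had an interval below 0 and 5.99% above. Intervals are narrower for genes with more UMIs, and these shares were not matched for level. Sparc, a collagen-binding matrix protein gene, was at 4214 and 3237 CPM, a ratio of -0.38 (-0.41 to -0.35). In non-cycling peritubular myoid-like cells Sparc was at 6231 and 4489.5 CPM. Lox, a collagen cross-linking enzyme gene, was at 82.6 and 60.6 CPM in members (-0.45, -0.66 to -0.23). Medians were -0.043 for 9 Hedgehog genes, 0.117 for 6 Notch genes and -0.142 for 6 p53 target genes. For the 11 CCR4-NOT genes the median was 0.0019, and the ratios ran from -0.249 (Cnot11) to 0.221 (Cnot8), with 1 interval, that of Cnot6l, below 0.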

How the data were processed

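The authors deposited unnormalised UMI counts for every gene in every barcode, made with Cell Ranger (version 3.0.1) on mm10 from Chromium 3′ libraries (kit 3.1). No source used here gives the aligner settings. Each matrix lists 6794880 barcodes, most of them empty, and merges the 2 samples of a genotype, so no sample could be separated. The control matrix held 181550221 UMIs and the Cnot3-cKO matrix 168770743.

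The members and gene lists were chosen with earlier results of these data known. UMIs were summed over the cells of a class and divided by their total (CPM). Ratios have exact conditional intervals, shares Clopper-Pearson intervals and levels Poisson intervals, all at 95% and for counting error only. Genes needed 100 UMIs over the cells compared, and a gene counted as different past 2-fold. No test was run, since each genotype is 1 library. Genes were named from the lists, from the 10 clearest differences between genotypes in each direction and from the 15 highest and lowest ratios outside the cycle lists; the remaining genes past 2-fold between genotypes were counted only.

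Doublets were marked by Scrublet in scanpy (1.11.5). Clusters came from 2500 variable genes, 30 principal components, 15 neighbours and Leiden resolution 0.5 (leidenalg 0.10.2). The exclusions before clustering were set after seeing the data. So was the 1000 CPM of Acta2 and Myh11 together that defines the myoid-like class among alternative settings. Cells over 10% mitochondrial UMIs, which the study leaves out, were an alternative. The interval and calling code was tested on simulated data.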

Additional observations from a re-analysis of the deposited data

Results flagged for a closer look

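The cycling share moved in opposite directions in 2 classes of the same libraries. Between genotypes (Cnot3-cKO over control, log2) it was -0.586 in interstitial cells and 0.218 in barcodes with at least 10 Ddx4 and Dazl UMIs. In the latter the share was 82.0% of 1325 barcodes in control and 95.4% of 546 in Cnot3-cKO. After thinning to 8000 UMIs their shares were 36.9% and 58.4%. The difference between the 2 ratios was not tested.

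Baz1a, which encodes a subunit of chromatin remodelling complexes, differed between genotypes (Cnot3-cKO over control, log2) by -1.21 in cycling interstitial cells and by 0.056 in other interstitial cells, on 83 and 24 UMIs in members. In cycling Sertoli cells the ratio was 0.33. The difference between the classes was not tested.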

How the results depend on the processing

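No paired analysis was possible because each matrix merges the 2 samples of its genotype, and for the same reason no sample could be left out in turn. Cell filters, cycling thresholds, doublet removal, thinning, scaling, gene minimums, subtraction of the empty-barcode profile and clustering settings were varied. Of the recomputed values that answer a comparison, 471 stayed close to the reported value, and the following 10 moved. Close means within 1.5 times for a count, within the counting interval for a share or ratio, and between the medians of its genes' interval bounds for a list median. A list median near 0 could change sign and still count as close. The Cnot3-cKO cycling share was 6.49% from 2 UMIs of Mki67 and Top2a. Genes lower in cycling cells numbered 395 at a minimum of 30 UMIs and 149 at 300. Genes higher and lower in Cnot3-cKO members numbered 61 and 76 at 30 UMIs, and 2 were lower at 300; with a collagen minimum of 1% 6 were lower, and without the cells of the macrophage-gene and endothelial-gene clusters, an alternative added after seeing the data, 5. The immediate early median was 1.02 at 30 UMIs and 1.24 at 300, with other genes tested. H2-Ab1, carried by 1 control cell, turned direction: between genotypes it was 1.60 at a collagen minimum of 1%, 1.84 with cycling cells from 5 UMIs and 1.58 without those clusters, and in cycling over other control cells it was -0.47, -2.52 and -0.50. Cd74 was 0.60 between genotypes at a collagen minimum of 1%. In all, 18 ratios of single genes fell under 2-fold in the same direction, among them those of Jun (1.01 as reported) and Ier2 (1.02). The cause of these shifts was not tested. Depth (6596824 UMIs in control and 4425188 in Cnot3-cKO members) limits the comparison of genotypes to genes of at least 100 UMIs.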

Other observations

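Clasrp was lower in Cnot3-cKO in every class examined, with log2 ratios of -1.07 in cycling interstitial, -1.01 in other interstitial, -1.14 in cycling Sertoli and -1.05 in other Sertoli cells and -1.09 in barcodes with at least 10 Ddx4 and Dazl UMIs. Slc38a9 was higher in all 5, with ratios of 1.46, 1.47, 1.14, 0.937 and 0.896, and Fgfr1 lower in all 5, with -1.24, -1.04, -0.774, -1.08 and -1.46. Fgfr1 was low in Sertoli cells. Cycling Sertoli cells held 38 UMIs in control and 28 in Cnot3-cKO (interval -1.53 to -0.032), and other Sertoli cells 5.86 and 2.78 CPM. In the GRCm38 annotation Clasrp lies on chromosome 7 at 19581035 to 19604486. Cnot3 is on the same chromosome at 3645268 to 3661109, as is Fosb, which was higher in Cnot3-cKO, at 19302696 to 19310051. Slc38a9 lies on chromosome 13 at 112660751 to 112738749, beside Ddx4 at 112598333 to 112652475. Fgfr1 lies on chromosome 8 at 25513654 to 25575718. Whether position took part in any of these differences was not tested.

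Of the 10 cycle groups, 9 had a median below 0 between genotypes (Cnot3-cKO over control, log2) in other interstitial cells. It was -0.388 for the E2F, MuvB and FOXM1 group, -0.381 for replication and -0.272 for kinetochore genes, against -0.06, 0.018 and -0.0039 in cycling cells, and 0.068 for clustered histones.

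Barcodes of 2000 to just under 8000 UMIs that met the other limits of the rule were not used above. Of 321 such control barcodes 12 (3.74%, 1.95 to 6.44%) had at least 3 Mki67 and Top2a UMIs, and of 462 in Cnot3-cKO 4 did (0.866%, 0.236 to 2.2%).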
